A study of Mus musculus with 12 samples.

Results

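The genes described are 10 secreted signalling proteins of stromal cells, 7 chemokines (Ccl2, Ccl7, Cxcl1, Cxcl5, Cxcl10, Cxcl12 and Cxcl14) and 3 cytokines of the IL-6 family (Il6, Il11 and Lif). They were chosen by symbol from the 56350 genes of the count table, where each of them had 1 row, and 8 of the 10 were among the 16484 genes that passed the filter on low counts (over 10 counts required in 3 or more libraries). Cxcl5 and Cxcl14 did not pass it and were tested only in a fit without a filter. Il11 and Cxcl10 had over 10 counts in all 6 osteocyte libraries and passed through these, since no more than 1 MSC library exceeded 10 counts for either gene. The other way round, Il6 exceeded 10 counts in 3 MSC libraries but in only 2 osteocyte libraries.

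The RNAseq data came from MPC2 cells, a conditionally immortalized mesenchymal progenitor line of the mouse that is a single clone, with 3 libraries from each of 4 conditions. MSCs were undifferentiated cells kept at 33 °C and given either vehicle (DMSO) or 50 µM FG-4592 (Roxadustat, an inhibitor of the prolyl hydroxylases that mark hypoxia-inducible factors for breakdown), both for 48 hours. Osteocytes were cells of the same clone that were differentiated over 3 weeks at 37 °C with β-glycerophosphate and ascorbic acid, and then received the same vehicle or FG-4592 for 48 hours. The effects of temperature, of the osteogenic media and of differentiation cannot be told apart. They touch the comparisons of osteocytes with MSCs and of their FG-4592 responses, but not FG-4592 against vehicle within a cell type. The labels do not say whether the libraries of a condition came from separate cultures, so that p-values measure the spread between these libraries, which may be technical.

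Chemokines draw leukocytes to a tissue through G protein-coupled receptors. Cxcl12 holds blood stem cells and lymphocytes in the marrow through Cxcr4, Ccl2 and Ccl7 call monocytes through Ccr2, and Cxcl1 and Cxcl5 call neutrophils through Cxcr2. Cytokines of the IL-6 family share the receptor subunit gp130 (Il6st) and signal through Jak kinases and Stat3, and in bone they act on both osteoblasts and osteoclasts.

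Libraries held 52829185 to 68108470 counts each. To check the treatment and the cell types, known genes were examined first. With FG-4592, the glucose transporter Slc2a1 rose by a log2 fold change of 3.36 in MSCs and 3.50 in osteocytes, Vegfa by 1.24 and 2.71, and Egln1 (the oxygen sensor Phd2) by 3.12 and 3.04. Of 10 oxygen-sensing genes, 7 rose in MSCs and 10 in osteocytes. The osteocyte genes Dmp1 and Phex were higher in vehicle-treated osteocytes than in vehicle-treated MSCs (log2 fold changes 3.23 and 5.88), as was Bglap (4.28), and these were the 3 of 8 tested osteoblast and osteocyte markers past both cutoffs. Alpl and Ibsp were lower, past the FDR cutoff alone (−0.33 and −0.74), the median of the 8 was 0.50 against −0.01 over all genes tested, and Sost, the marker of mature osteocytes, had 0 counts in every library. Of 11 tested MSC and stromal markers, 3 were higher in vehicle-treated osteocytes past both cutoffs, Nt5e (5.34), Vcam1 (4.06) and Lepr (3.71). Among the 11, 1 was lower, Ly6a, and the median was 0.01, so that these markers were not lower in osteocytes as a set. Of 20 leukocyte and vessel markers, 8 to 10 were at 0 in all libraries of a condition, including Adgre1, and Ptprc (CD45) had at most 9 counts in any library. The summed level of the 20 markers was 12.3 to 12.7 CPM (counts divided by the TMM-scaled library total and put on the common CPM scale) in vehicle-treated MSCs and 5.94 to 8.59 with FG-4592, and 23.1 to 25.7 and 15.3 to 18.9 in osteocytes, of which the lysozyme gene Lyz2 made up 7.10, 1.79, 17.5 and 9.64 CPM on average in that order.

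Sequence just before the start of the gene is shown for Cxcl12, the most abundant of the 10 genes, and for Cxcl1 and Lif, which differed in opposite directions between the cell types. The sequences are from RefSeq (GRCm38.p6), which gave a window for 7 of the 10 genes, and capitals mark matches on either strand to the core of the hypoxia response element (ACGTG or GCGTG), to the NF-kB consensus or to TTCNNNGAA, the site of Stat factors. The Cxcl12 window, chr6:117168285-117168534 on the plus strand, held no match. The Cxcl1 window, chr5:90890995-90891240 on the plus strand, held 1 match to ACGTG, read on the minus strand, and 2 overlapping NF-kB matches. The Lif window, chr11:4257318-4257556 on the plus strand, held 1 match to GCGTG, read on the minus strand.
Cxcl12: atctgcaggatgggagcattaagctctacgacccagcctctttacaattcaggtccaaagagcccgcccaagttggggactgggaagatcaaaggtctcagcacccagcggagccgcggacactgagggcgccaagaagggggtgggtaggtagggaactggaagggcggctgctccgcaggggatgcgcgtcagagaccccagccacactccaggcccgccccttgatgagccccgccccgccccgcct
Cxcl1: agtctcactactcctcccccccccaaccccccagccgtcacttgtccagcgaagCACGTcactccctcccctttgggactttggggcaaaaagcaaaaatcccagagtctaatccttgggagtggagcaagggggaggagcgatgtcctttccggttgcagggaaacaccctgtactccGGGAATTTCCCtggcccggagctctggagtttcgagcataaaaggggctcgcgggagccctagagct
Lif: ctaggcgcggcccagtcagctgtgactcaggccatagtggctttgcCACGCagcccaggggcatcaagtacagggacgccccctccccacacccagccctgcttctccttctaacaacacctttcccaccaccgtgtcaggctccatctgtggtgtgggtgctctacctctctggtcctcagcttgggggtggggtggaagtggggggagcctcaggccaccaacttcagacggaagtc
Among the other windows, Cxcl10 held 1 match to GCGTG and 2 to the NF-kB consensus, Il6 held 1 to the NF-kB consensus, Cxcl14 held 2 to GCGTG and 1 to TTCNNNGAA, and Il11 held none. Of all 32851 windows of this kind, 16.6% held ACGTG, 28.2% GCGTG, 3.9% the NF-kB consensus and 7.02% TTCNNNGAA. Such a match is a run of letters and does not show that a factor binds there. Ccl2, Ccl7 and Cxcl5 had no entry.

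Levels were compared between genes as RPKM, which are CPM divided by the exonic length of the gene in kilobases. Cxcl12 was first in every condition and held between 91.4% and 99.1% of the summed RPKM of the 10 genes in each library. In vehicle-treated MSCs it was at 1068 ± 57.3 RPKM (SD, n = 3), followed by Cxcl1 at 20.5 ± 2.64, Ccl7 at 17.2 ± 0.860 and Ccl2 at 10.4 ± 0.269, and the ranges of these 4 genes over libraries did not overlap. The other 6 genes were at most at 0.131 RPKM in any vehicle-treated MSC library, and neighbours among them overlapped. In FG-4592-treated MSCs the order was Cxcl12 (386 ± 4.90), Ccl7 (12.5 ± 1.85), Cxcl1 (9.75 ± 1.05) and Ccl2 (8.59 ± 1.47), where Cxcl1 and Ccl2 overlapped.

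In vehicle-treated osteocytes Cxcl12 was at 1630 ± 90.2 RPKM, Ccl7 at 13.7 ± 4.02 and Ccl2 at 9.07 ± 1.25, and the last pair overlapped. Cxcl1 (2.81 ± 0.343) and Lif (1.32 ± 0.346) came next, clear of each other and of Cxcl10 (0.335 ± 0.249), which overlapped Il11 (0.237 ± 0.0975). In FG-4592-treated osteocytes Cxcl1 (2.91 ± 0.0566) came second after Cxcl12 (905 ± 24.8), and Lif (2.18 ± 0.207), Ccl2 (1.94 ± 0.563) and Ccl7 (1.64 ± 0.372) overlapped in that order. Summed without Cxcl12, the other 9 genes were in MSCs at 48.4 ± 3.33 RPKM with vehicle and 31.1 ± 4.03 with FG-4592, and in osteocytes at 27.7 ± 5.54 and 9.14 ± 0.619.

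**Figure D1:**
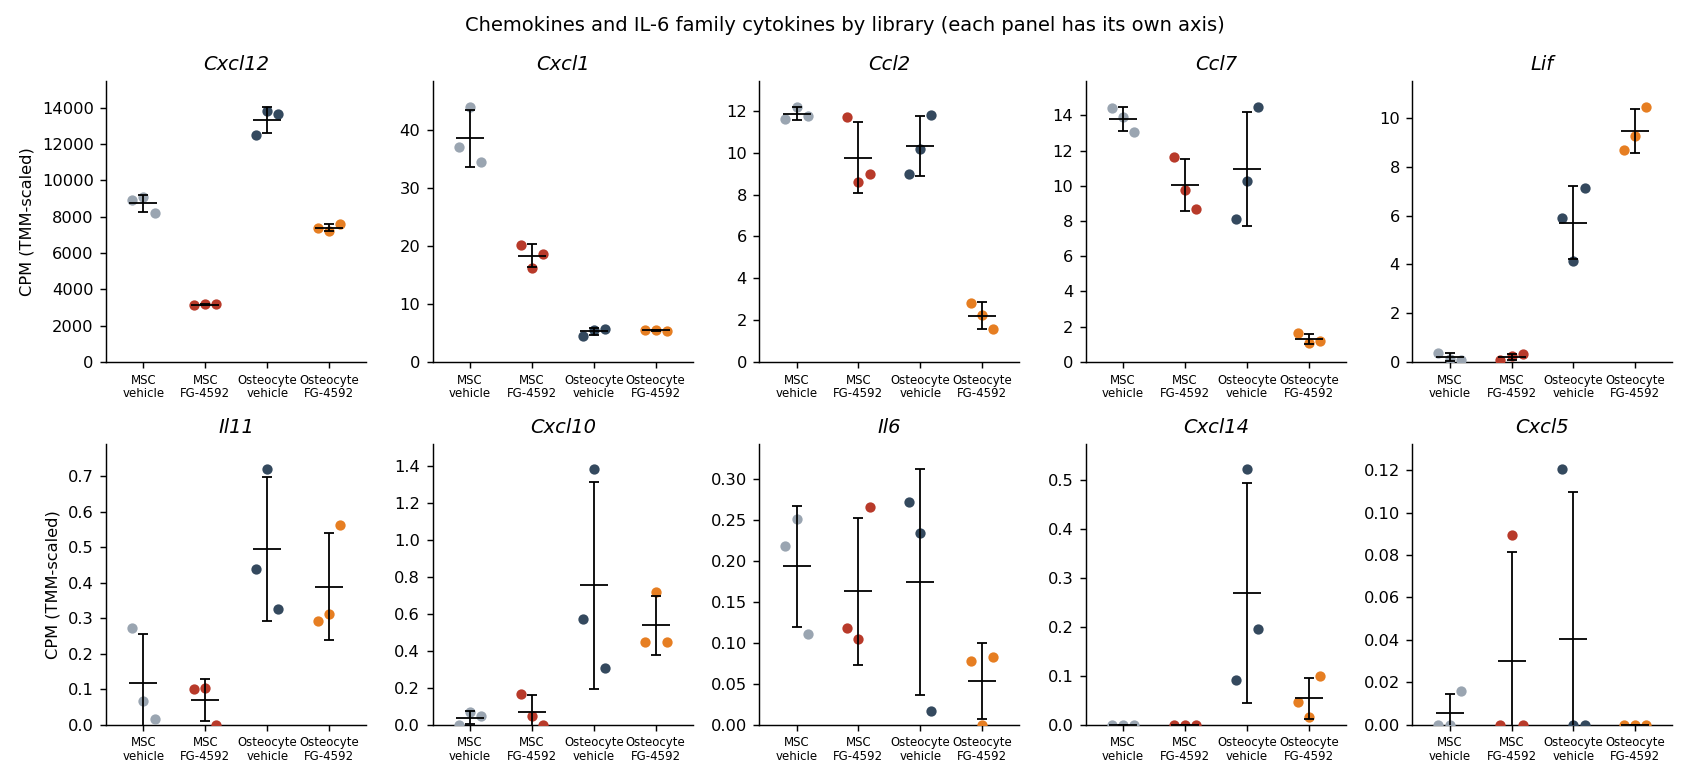
Level of each of the 10 genes in each library, in TMM-scaled CPM on axes of their own; points are libraries, horizontal lines are means and bars are SDs of 3 libraries. Cxcl12 was lower with FG-4592 in both cell types, whereas Ccl2 and Ccl7 stood low in FG-4592-treated osteocytes, between 1.08 and 2.83 CPM, and Lif was near 0 in all 6 MSC libraries.

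Cxcl12 (ENSMUSG00000061353.11, mm10 chromosome 6, 117168535 to 117181367, plus strand) was among the most read genes of these cells. In vehicle-treated MSCs it was at 8897, 9094 and 8202 CPM, and in FG-4592-treated MSCs at 3109, 3185 and 3170. All treated libraries were below all vehicle libraries. Cxcl12 fell in MSCs by 1.47 on the log2 scale (SE 0.0475, with FDR 6.75e-13 in the quasi-likelihood test of edgeR), or 2.77-fold, and it moved from rank 2 of all genes by count to ranks 18 to 22.

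In vehicle-treated osteocytes Cxcl12 was at 12483, 13841 and 13660 CPM, and in FG-4592-treated osteocytes at 7361, 7214 and 7615. The groups did not overlap, and the treated libraries were all lower. The log2 fold change was −0.85 (SE 0.0468, with FDR 3.96e-10 in edgeR), past the FDR cutoff but not past the fold change cutoff of 1. Relative to MSCs, the osteocyte response was less negative by a log2 difference of 0.62 (SE 0.0658, with FDR 5.18e-06 for the interaction in edgeR), which is under the cutoff of 1. Between the cell types Cxcl12 was higher in osteocytes, by a log2 fold change of 0.61 with vehicle (FDR 1.68e-08, edgeR) and of 1.23 with FG-4592 (SE 0.0472, with FDR 2.23e-12), and the latter passed both cutoffs.

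Cxcl1 (ENSMUSG00000029380.11, chromosome 5, 90891241 to 90893115, plus strand), a neutrophil attractant, was higher in the undifferentiated cells. It was at 37.1, 44.0 and 34.4 CPM in vehicle-treated MSCs and at 20.1, 16.2 and 18.6 in FG-4592-treated MSCs. In osteocytes it was at 4.53, 5.57 and 5.71 CPM with vehicle and at 5.45, 5.58 and 5.37 with FG-4592. Treated MSCs were all below vehicle-treated MSCs, all osteocyte libraries were below all MSC libraries, and the osteocyte treatments overlapped.

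With FG-4592, Cxcl1 fell in MSCs by 1.08 on the log2 scale (SE 0.108, with FDR 7.07e-07 in the quasi-likelihood test of edgeR). The fold change is close to the cutoff, at −0.94 without replicate 2 of the vehicle-treated MSCs and −0.99 without replicate 2 of the FG-4592-treated MSCs, while the FDR stayed under 0.05. In osteocytes the log2 fold change was 0.05 (95% interval −0.20 to 0.31, FDR 0.762, edgeR). The 2 responses differed by 1.13 (SE 0.161, with FDR 9.08e-05 for the interaction in edgeR), or 0.98 without replicate 2 of the vehicle-treated MSCs or without replicate 1 of the vehicle-treated osteocytes. Cxcl1 was lower in osteocytes than in MSCs by a log2 fold change of −2.87 with vehicle (SE 0.118, with FDR 7.66e-12 in edgeR) and −1.74 with FG-4592 (SE 0.116, with FDR 2.23e-09). Cxcl2, the next gene on the chromosome, had 0 counts in all libraries.

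Cxcl5 (ENSMUSG00000029371.7, chromosome 5, 90759360 to 90761624, plus strand), the other neutrophil attractant, had 8 counts in 1 vehicle-treated osteocyte library, 6 in 1 FG-4592-treated MSC library, 1 in 1 vehicle-treated MSC library and 0 in the other 9. It was thus not detectable in most libraries at this depth, where a count of 0 allows up to 3 counts, or 0.0447 to 0.0545 CPM by library. These limits cover counting error only. In the fit without a filter on low counts the lowest FDR of Cxcl5 over all comparisons was 0.161 (edgeR).

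The monocyte attractants Ccl2 (ENSMUSG00000035385.5, chromosome 11, 82035571 to 82037453, plus strand) and Ccl7 (ENSMUSG00000035373.2, chromosome 11, 82045712 to 82047525, plus strand) are neighbours, 8258 bases apart. Ccl2 was at 11.6, 12.2 and 11.8 CPM in vehicle-treated MSCs, 11.7, 8.63 and 8.99 in FG-4592-treated MSCs, 8.98, 10.2 and 11.8 in vehicle-treated osteocytes and 2.83, 2.22 and 1.55 in FG-4592-treated osteocytes. Only the last group stood apart from the other 9 libraries. Ccl7 was at 14.4, 13.9 and 13.1 CPM in vehicle-treated MSCs, 11.6, 9.76 and 8.70 in FG-4592-treated MSCs, 8.12, 10.3 and 14.5 in vehicle-treated osteocytes and 1.65, 1.08 and 1.21 in FG-4592-treated osteocytes. The last group was again below all others, and treated MSCs were also below vehicle-treated MSCs.

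In osteocytes FG-4592 lowered Ccl7 by a log2 fold change of −3.06 (SE 0.210, with FDR 5.89e-09 in the quasi-likelihood test of edgeR), or 8.32-fold, and Ccl2 by −2.22 (SE 0.182, with FDR 4.99e-08), or 4.67-fold. In MSCs the log2 fold changes were −0.46 for Ccl7 (95% interval −0.84 to −0.09, FDR 0.0508, edgeR) and −0.28 for Ccl2 (−0.63 to 0.07, FDR 0.199), so that neither was called. The FDR of Ccl7 in MSCs lay on both sides of 0.05 among the alternatives, from 0.00156 without a filter to 0.0751 with a replicate block and 0.175 without replicate 3 of the FG-4592-treated MSCs (edgeR), but its fold change reached the cutoff in none of them. Osteocytes responded more than MSCs by a log2 difference of −2.59 for Ccl7 (SE 0.273, with FDR 4.81e-06 for the interaction in edgeR) and −1.94 for Ccl2 (SE 0.244, with FDR 2.72e-05). Between vehicle-treated osteocytes and MSCs Ccl7 and Ccl2 were not called (log2 fold changes −0.33 and −0.20, FDR 0.129 and 0.330, edgeR). For Ccl7 this rests on single libraries, with −0.59 (FDR 0.00683, edgeR) without replicate 3 and −0.12 (FDR 0.577) without replicate 1 of the vehicle-treated osteocytes, and its FDR was 0.0199 without a filter. For Ccl2 the log2 fold change was −0.31 and −0.07 without these same libraries (FDR 0.178 and 0.771, edgeR). With FG-4592 Ccl7 was lower in osteocytes by −2.93 and Ccl2 by −2.14 (FDR 5.53e-09 and 4.44e-08). The leukocyte and vessel markers were also lower in FG-4592-treated osteocytes as a sum (15.3 to 18.9 against 23.1 to 25.7 CPM), while Ptprc was at 2 to 9 counts there against 0 to 6 with vehicle, and the monocyte markers Adgre1 and Itgam had at most 2 counts in any library. The other tested monocyte and macrophage markers had log2 fold changes with FG-4592 in osteocytes of −0.86 for Lyz2 (FDR 7.99e-05, edgeR), past the FDR cutoff alone, and of 0.09 for Cd14, −0.46 for Cd68 and −0.49 for Csf1r (FDR 0.702, 0.216 and 0.525). Of the exonic bases of Csf1r, 15.1% are shared with Hmgxb3, which had at most 3210 counts in any library. Of the 8 tested osteoblast and osteocyte markers, 4 fell with FG-4592 in osteocytes, among them Phex (−4.35) and Dmp1 (−2.44), and 1 rose, with a median of −1.05. In MSCs 4 of them fell and none rose by the 3 tests (0 upward at an unadjusted p under 0.05 in the quasi-likelihood test), among them Ibsp (−4.12) and Alpl (−1.99), with a median of −1.20. Of the 11 tested MSC and stromal markers, 1 rose with FG-4592 in osteocytes, Ly6a (2.52), and 1 fell, Lepr (−1.14), with a median of −0.17. The part of all these markers in the result was not tested. In such bulk samples fewer cells of a type and less RNA per cell cannot be told apart.

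Ccl2 and Ccl7 kept near-equal counts in 3 conditions, with 1.16 ± 0.0685 counts of Ccl7 per count of Ccl2 in vehicle-treated MSCs, 1.03 ± 0.0880 in FG-4592-treated MSCs and 1.05 ± 0.163 in vehicle-treated osteocytes (SD, n = 3). In FG-4592-treated osteocytes the ratio was 0.614 ± 0.148, and its highest library (0.777) was under the lowest of the other conditions (0.904). The next gene beyond Ccl7, the eosinophil attractant Ccl11, had at most 8 counts in any library.

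Cxcl10 (ENSMUSG00000034855.13, chromosome 5, 92346638 to 92348889, minus strand) is induced by interferons and calls T cells through Cxcr3. It had 0, 4 and 3 counts in vehicle-treated MSCs and 10, 3 and 0 in FG-4592-treated MSCs, against 38, 77 and 19 counts with vehicle and 29, 44 and 27 with FG-4592 in osteocytes. All osteocyte libraries were above all MSC libraries, and the treatments overlapped within each cell type. Cxcl10 was higher in osteocytes by a log2 fold change of 4.21 with vehicle (SE 0.947, with FDR 0.00146 in the quasi-likelihood test of edgeR) and 2.92 with FG-4592 (SE 0.874, with FDR 0.00979), the latter at 4.44 without replicate 1 of the FG-4592-treated MSCs. Since Cxcl10 passed the filter through the osteocyte libraries, the fit without a filter is given too, with log2 fold changes of 4.19 and 2.91 (FDR 9.46e-08 and 9.51e-05, edgeR). That fit uses the same counts, so its smaller FDRs add no separate support. For FG-4592 the 95% intervals were wide, −1.52 to 3.12 in MSCs and −2.04 to 1.07 in osteocytes, and no change was detectable at this depth. Of its 2252 exonic bases 133 are shared with Art3, and a read pair there was counted for both.

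Cxcl14 (ENSMUSG00000021508.11, chromosome 13, 56288643 to 56296551, minus strand), a chemokine of epithelia and stroma, had 0 counts in all 6 MSC libraries. It had 6, 29 and 12 counts in vehicle-treated osteocytes and 3, 1 and 6 in FG-4592-treated osteocytes. Set against a floor of 3 counts per library, Cxcl14 was at least 5.32-fold higher in vehicle-treated osteocytes than in vehicle-treated MSCs. The bound rests on replicate 2, the library with 29 counts, and was 2.82-fold without it, an alternative chosen after seeing the data. In FG-4592-treated osteocytes Cxcl14 was near the floor, at 1.14 times it and at 0.661 times it without replicate 3. In the fit without a filter on low counts the FDR between osteocytes and MSCs was 0.000431 with vehicle and 0.0280 with FG-4592 (edgeR, 31742 genes). The latter rests on 3, 1 and 6 counts near the floor, so that no difference is drawn from it.

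Lif (ENSMUSG00000034394.14, chromosome 11, 4257557 to 4272514, plus strand), which acts on osteoblasts through Lifr and Il6st, was the highest of the 3 IL-6 family cytokines in osteocytes. It had 21, 6 and 6 counts in vehicle-treated MSCs, 5, 16 and 20 in FG-4592-treated MSCs, 392, 230 and 438 in vehicle-treated osteocytes and 566, 568 and 635 in FG-4592-treated osteocytes. Osteocyte libraries were all above MSC libraries, and treated osteocytes were all above vehicle-treated ones. In CPM, Lif was at 5.90, 4.13 and 7.12 with vehicle and 8.71, 9.29 and 10.5 with FG-4592 in osteocytes, against 0.192 ± 0.164 and 0.212 ± 0.117 in MSCs (SD, n = 3).

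The log2 fold change of Lif between osteocytes and MSCs was 4.93 with vehicle (SE 0.389, with FDR 2.51e-08 in the quasi-likelihood test of edgeR) and 5.46 with FG-4592 (SE 0.377, with FDR 3.64e-09). With FG-4592 it was 0.73 in osteocytes (SE 0.272, with FDR 0.0399 in edgeR), under the fold change cutoff. The FDR of this response was over 0.05 with DESeq2 (0.210) and with edgeR on library size alone (0.0701), and without any of 5 of the 6 osteocyte libraries, with a log2 fold change of 0.53 and an FDR of 0.169 without replicate 2 of the vehicle-treated osteocytes. In MSCs the 95% interval of the response was −0.94 to 1.33, and the responses differed by 0.53 (FDR 0.585, edgeR's interaction contrast).

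Il11 (ENSMUSG00000004371.15, chromosome 7, 4772373 to 4782859, minus strand), a cytokine that supports osteoblast formation, had 15, 4 and 1 counts in vehicle-treated MSCs and 6, 7 and 0 in FG-4592-treated MSCs, against 29, 40 and 20 with vehicle and 19, 19 and 34 with FG-4592 in osteocytes. The osteocyte libraries were all higher than the MSC libraries in CPM, and FG-4592 and vehicle overlapped in both cell types. Il11 was higher in osteocytes by a log2 fold change of 2.07 with vehicle (SE 0.834, with FDR 0.0493 in the quasi-likelihood test of edgeR) and 2.47 with FG-4592 (SE 0.879, with FDR 0.0252). Without a filter, which Il11 passed through the osteocyte libraries, these were 2.05 and 2.46 (FDR 0.0164 and 0.00400, edgeR). That fit uses the same counts, so its smaller FDRs add no separate support. With the filter the call with vehicle rests at the threshold. Its FDR was over 0.05 on library size alone (0.0513), with another filter (0.0502), with a replicate block (0.0556) and without any of 9 of the 12 libraries (up to 0.141), whereas without replicate 1 of the vehicle-treated MSCs, the library with 15 counts, the log2 fold change was 3.56. With FG-4592 the FDR was 0.0702 without replicate 3 of the FG-4592-treated MSCs and 0.0847 without replicate 3 of the FG-4592-treated osteocytes (edgeR).

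Il6 (ENSMUSG00000025746.11, chromosome 5, 30013114 to 30019981, plus strand), which drives osteoclast formation and the acute phase response, was low in all cells. It had 12, 15 and 7 counts in vehicle-treated MSCs, 7, 7 and 17 in FG-4592-treated MSCs, 18, 13 and 1 in vehicle-treated osteocytes and 5, 0 and 5 in FG-4592-treated osteocytes. Within each cell type the treatments overlapped, and Il6 was called in none of the 5 comparisons. In osteocytes the log2 fold change with FG-4592 was −1.67 (95% interval −3.70 to 0.37, FDR 0.179, edgeR's quasi-likelihood test), and without replicate 3 of the vehicle-treated osteocytes, the library with 1 count, it was −2.20 (FDR 0.0494). Leaving out each library in turn gave −2.20 to −1.10, with an FDR of up to 0.405 (edgeR). In MSCs the log2 fold change was −0.24 (95% interval −2.06 to 1.58). Both intervals were wide and spanned 0, so that changes within them in either direction are not excluded.

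**Figure D2:**
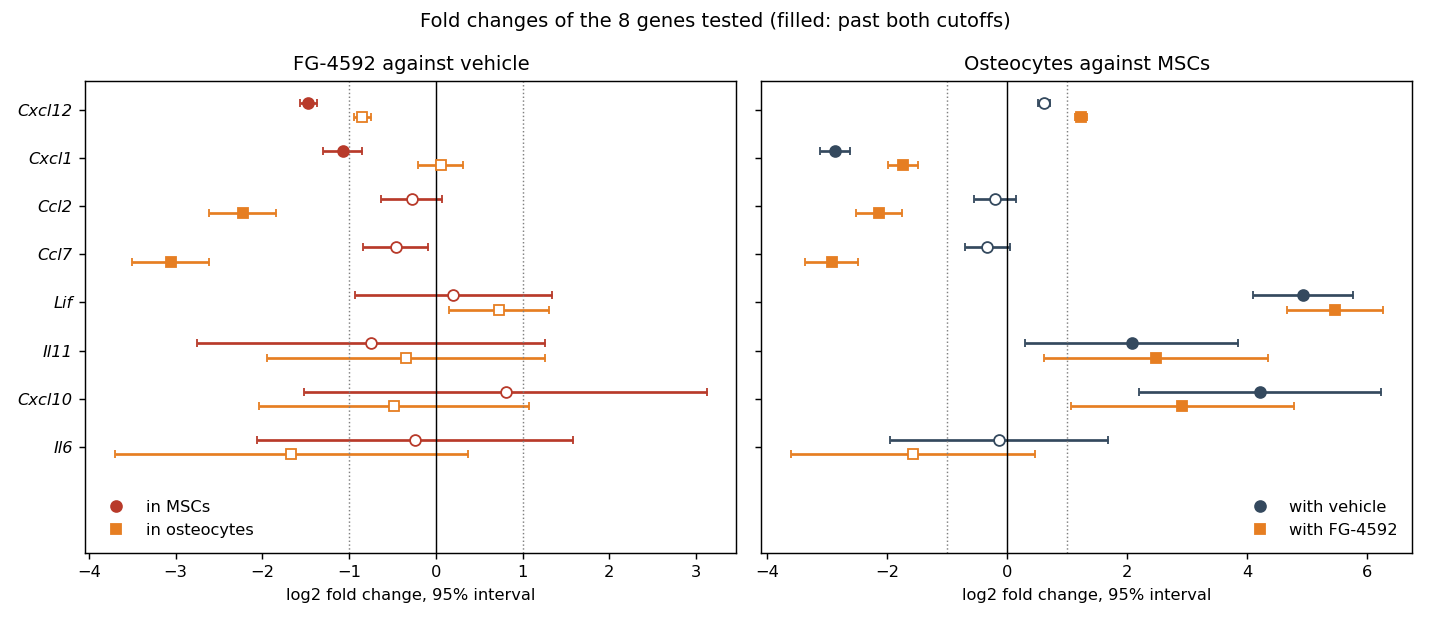
Log2 fold changes of the 8 genes tested with 95% intervals, for FG-4592 against vehicle in MSCs and osteocytes (left) and for osteocytes against MSCs with vehicle and FG-4592 (right); filled symbols passed both cutoffs and dotted lines mark a log2 fold change of 1 in either direction. Cxcl12 and Cxcl1 passed in MSCs (−1.47 and −1.08) and Ccl2 and Ccl7 in osteocytes (−2.22 and −3.06), while the intervals of Il6, Il11 and Cxcl10 span 0 for FG-4592.

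With FG-4592, 2 of the 8 genes tested were lower past both cutoffs in MSCs, Cxcl12 and Cxcl1, and 2 in osteocytes, Ccl2 and Ccl7, where Cxcl12 was also lower, past the FDR cutoff but not the fold change cutoff. Among all genes tested in MSCs, 5.17% were past both cutoffs downward and 4.12% upward, and in osteocytes 4.26% and 6.25%. None of the 8 was called upward in either cell type by edgeR's quasi-likelihood test, its likelihood ratio test or DESeq2, and at an unadjusted p under 0.05 the quasi-likelihood test had 0 upward in MSCs and 1 in osteocytes, Lif. The libraries of FG-4592 and vehicle did not overlap for 3 of the 8 genes in MSCs and 4 in osteocytes, where all genes tested gave 50.5% and 51.8%, so that the shares were at or near the background. The median log2 fold change of the 8 genes was −0.37 in MSCs and −0.67 in osteocytes, against −0.05 and 0.00 over all genes tested.

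Between osteocytes and MSCs, counts were taken over the 5 genes that passed the filter within each cell type, Ccl2, Ccl7, Cxcl1, Cxcl12 and Lif. Lif was called upward with vehicle, and Lif and Cxcl12 with FG-4592. Upward calls made up 9.83% of all genes tested with vehicle and 12.6% with FG-4592. Cxcl1 was called downward with vehicle, and Cxcl1, Ccl2 and Ccl7 with FG-4592, where downward calls made up 6.08% and 5.64%. The libraries did not overlap for 3 of the 5 genes with vehicle and 5 with FG-4592, against 56.9% and 64.1% of all genes tested. All genes tested include some that passed the filter through a single cell type, so that the 2 sets are unlike. The interaction passed both cutoffs upward for Cxcl1 (3.94% of all genes tested) and downward for Ccl2 and Ccl7 (1.07%). These comparisons share libraries with each other, so that their values are given side by side only.

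Receptors of these proteins were examined in the same cells. Cxcr4, Ccr2, Ccr3, Cxcr1, Cxcr2 and Ackr1 had at most 1 count in any library and Ccr1 at most 7, while Cxcr3 had 14 counts in 1 vehicle-treated osteocyte library and 0 in the others. Ackr3, a scavenging receptor of Cxcl12, was at 2.09, 2.19 and 1.54 CPM in vehicle-treated MSCs, 11.8, 12.2 and 11.2 in FG-4592-treated MSCs, 9.08, 8.54 and 9.81 in vehicle-treated osteocytes and 31.5, 36.7 and 31.9 in FG-4592-treated osteocytes. Treated libraries were above vehicle libraries in both cell types, opposite to Cxcl12. Ackr3 rose with FG-4592 by 2.60 on the log2 scale in MSCs (SE 0.123, with FDR 8.10e-11 in the quasi-likelihood test of edgeR) and by 1.87 in osteocytes (SE 0.107, with FDR 6.27e-10).

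Ackr4, which scavenges other chemokines such as Ccl25, was at 5.10, 5.36 and 4.48 CPM with vehicle and 0.487, 0.879 and 0.687 with FG-4592 in MSCs, and at 198.7, 176.5 and 192.6 with vehicle and 58.9, 65.6 and 72.0 with FG-4592 in osteocytes. Within each cell type, treated libraries were all below vehicle libraries. It fell with FG-4592 in both cell types, by log2 fold changes of −2.84 in MSCs and −1.53 in osteocytes (FDR 4.60e-10 and 5.71e-10, edgeR), and was higher in osteocytes by 5.25 with vehicle. Of its exonic bases 8.90% are shared with Acad11, which had at most 10991 counts in any library. Of 17 chemokine receptors 4 were tested, Ackr3, Ackr4, Ccr7 and Ccr10, and no receptor but Ackr3 and Ackr4 was called with FG-4592.

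For the IL-6 family, the shared subunit Il6st was at 411 ± 6.01 and 366 ± 3.84 CPM in MSCs with vehicle and FG-4592 and at 579 ± 6.96 and 632 ± 9.65 in osteocytes (SD, n = 3), and Lifr lay between 192 and 298 CPM over all libraries. Neither was called in any comparison. The ligand-binding subunit Il6ra was at 46.8, 52.2 and 49.2 CPM with vehicle and 75.8, 72.2 and 68.6 with FG-4592 in MSCs, and at 46.0, 43.7 and 39.1 with vehicle and 196.6, 183.7 and 208.9 with FG-4592 in osteocytes. The treated osteocytes stood above all other libraries. Il6ra rose in osteocytes by 2.19 on the log2 scale (SE 0.0695, with FDR 3.61e-13 in edgeR), against 0.55 in MSCs, and the responses differed by 1.65 (SE 0.0955, with FDR 8.28e-09 for the interaction in edgeR).

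Osmr, the receptor of oncostatin M, was at 63.5, 59.2 and 62.6 CPM with vehicle and 59.9, 53.2 and 56.9 with FG-4592 in MSCs, and at 78.7, 51.7 and 61.0 with vehicle and 158.1, 164.2 and 165.1 with FG-4592 in osteocytes. Only FG-4592-treated osteocytes stood apart. Osmr rose in osteocytes by 1.35 (SE 0.104, with FDR 2.47e-08 in edgeR) and was at −0.12 in MSCs, a difference of 1.47 between the responses (FDR 2.49e-06, edgeR's interaction contrast). Its ligand gene Osm, next to Lif on the chromosome, had at most 3 counts in any library. Il11ra1 was in MSCs at 47.5 ± 1.40 CPM with vehicle and 33.9 ± 0.690 with FG-4592, and at 54.7 ± 3.82 and 54.5 ± 1.25 in osteocytes, and it was called in no comparison. Il11ra1 shares 8 exonic bases with Ccl27a, and both have near-identical copies in the mouse genome, so that their counts are uncertain.

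**Figure D3:**
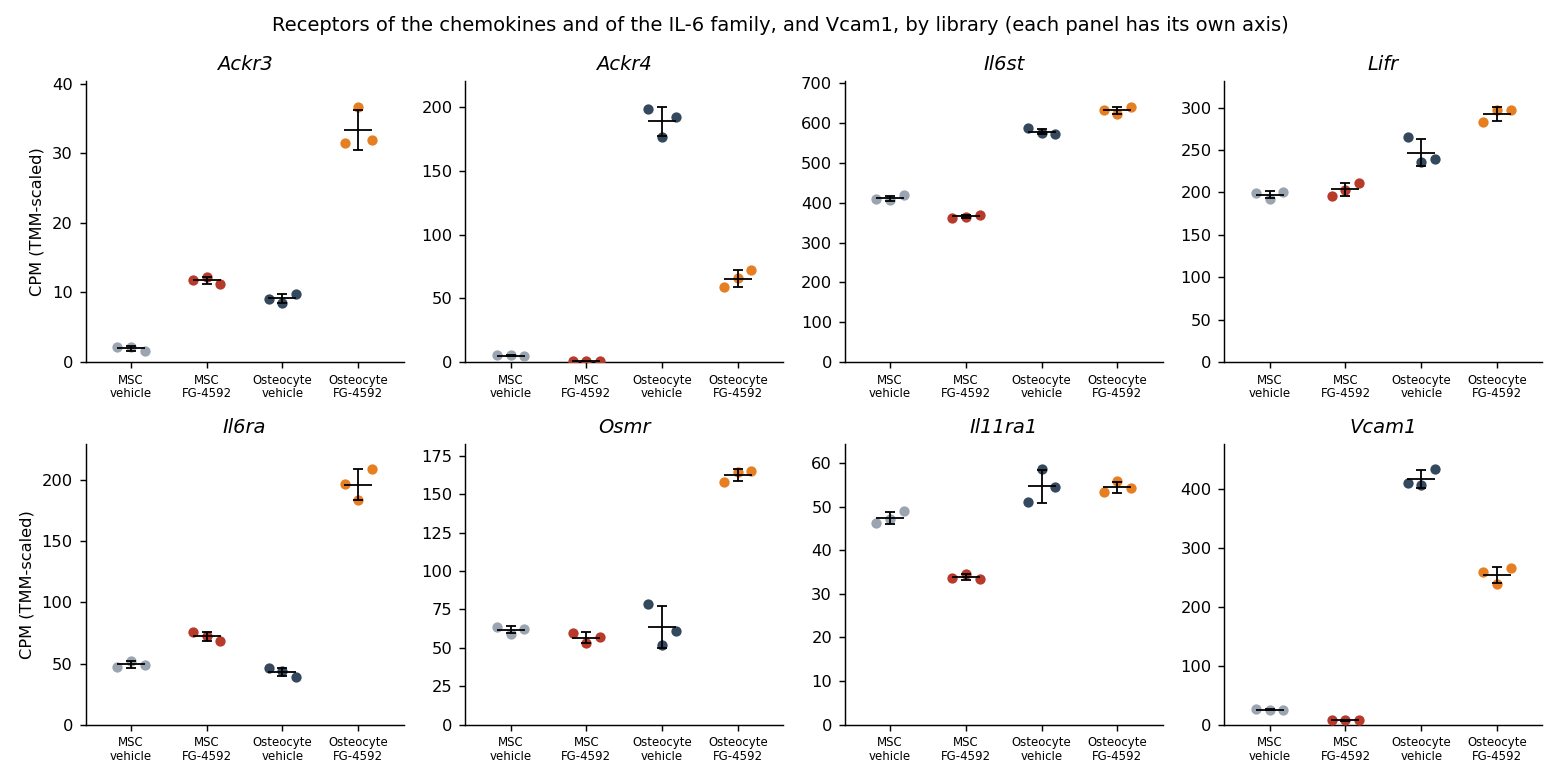
Level of 7 receptor genes and of Vcam1 in each library, in TMM-scaled CPM on axes of their own; points are libraries, horizontal lines are means and bars are SDs of 3 libraries. Il6ra and Osmr stood high in FG-4592-treated osteocytes (means 196 and 162 CPM), and Ackr3 was higher and Ackr4 lower with FG-4592 in both cell types.

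Of 18 other ligands and receptors of the IL-6 family 9 were tested. In osteocytes 2 rose with FG-4592, Il6ra and Osmr, and none fell by the quasi-likelihood test or DESeq2, while the likelihood ratio test also called Ctf1 (named after its values were seen) downward. In MSCs none was called by these 3 tests, with 1 upward and 2 downward at an unadjusted p under 0.05 in the quasi-likelihood test. Of 20 genes of Jak-Stat3 signalling and its feedback, 2 rose in osteocytes with FG-4592, Cebpb by 1.98 and Cebpd by 1.86 on the log2 scale (FDR 1.88e-07 and 8.26e-07, edgeR). Both encode transcription factors of the acute phase response. The phosphatase gene Ptpn6, named after its values were seen, fell by 2.24. In MSCs none of the 20 was called by the quasi-likelihood test, with 5 upward and 9 downward at an unadjusted p under 0.05, while DESeq2 and the likelihood ratio test called Ptpn6 downward. Cebpb was at 7.28 ± 0.979 CPM with vehicle and 28.8 ± 0.958 with FG-4592 in osteocytes (SD, n = 3), and Cebpd at 9.20 ± 0.480 and 33.3 ± 2.52. Of the exonic bases of Cebpb, 20.7% are shared with Tmem189, and Cebpd shares 562 bases with Spidr. The feedback inhibitor Socs3, named after its values were seen, was at 53.8 ± 5.34 and 106 ± 6.74 CPM in osteocytes, with a log2 fold change of 0.98, just under the cutoff.

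Of 20 NF-kB subunits, kinases and feedback genes 19 were tested. Tnfaip3, a brake on NF-kB, rose with FG-4592 by 1.26 in MSCs and 1.33 in osteocytes on the log2 scale (FDR 2.49e-10 and 9.64e-11, edgeR), and in osteocytes Tnfaip2 (1.24) and Nfkbiz (1.14) rose as well. The adhesion gene Vcam1 fell in MSCs by 1.80 and was at −0.71 in osteocytes, and it was higher in osteocytes than in MSCs by a log2 fold change of 4.06 with vehicle. The signalling adaptor Traf1, named after its values were seen, fell in osteocytes by 3.29. Among the cytokines and sensors upstream of these genes, of which 18 of 23 were tested, Tnf, Il1a and Il1b had 0 counts in every library. Il1rn, the interleukin-1 receptor antagonist, fell with FG-4592 by 1.88 in MSCs and 1.40 in osteocytes, and Il18 fell in MSCs by 1.35. In osteocytes the receptor gene Il1r1 rose by 1.23 and the alarmin gene Il33 fell by 1.44, and Tlr2, named after its values were seen, fell by 1.07. Il1rap, a subunit of the interleukin-1 receptor, was just past the fold change cutoff in MSCs and under it with DESeq2 and with RLE scaling.

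Of 29 other chemokines 12 were tested, and none rose with FG-4592 by the 3 tests (at an unadjusted p under 0.05 in the quasi-likelihood test 0 were upward in MSCs and 1 in osteocytes). In MSCs Cxcl16, a membrane-bound attractant of T cells, fell by 3.26 on the log2 scale, from 33, 52 and 63 counts to 8, 6 and 2, and Ccl9 fell by 1.03, which was between −0.93 and −0.97 without replicate 1 or 2 of the vehicle-treated MSCs or replicate 2 or 3 of the FG-4592-treated MSCs. Of the exonic bases of Cxcl16, 18.3% are shared with Zmynd15, which had at most 245 counts in any library. In osteocytes the B cell attractant Cxcl13 fell by 2.58, from 6.49 ± 3.25 to 1.09 ± 0.130 CPM. The medians of the 12 genes were −0.88 in MSCs and −0.42 in osteocytes, against −0.05 and 0.00 over all genes tested. Between the cell types, Cxcl16 was higher in osteocytes by a log2 fold change of 3.96 with vehicle, and Ppbp, next to Cxcl5 and named for its place, had 31 to 61 counts in vehicle-treated MSCs against 0 to 1 in vehicle-treated osteocytes. Cxcl9, next to Cxcl10 and named after its values were seen, had 28 to 64 counts in vehicle-treated osteocytes against 0 to 2 in vehicle-treated MSCs. Cxcl15, which lies on the other side of Cxcl1 and was named after its values were seen, was lower in osteocytes by a log2 fold change of −1.73 with vehicle.

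Of 19 other inflammatory outputs of stromal cells 15 were tested. With FG-4592 the collagenase gene Mmp13 rose in osteocytes by 1.71 on the log2 scale, whereas Gdf15 fell by 2.08 and Il7, a lymphocyte growth factor, by 1.15. Nos2, named after its values were seen, had 0 to 1 counts in vehicle-treated MSCs and 7 to 35 with FG-4592, and 0 counts in vehicle-treated against 44 to 82 in FG-4592-treated osteocytes. Of 11 factors that control the decay or stability of cytokine transcripts, all tested, none was called with FG-4592 in either cell type by the 3 tests, with 5 upward and 3 downward in MSCs and 6 and 3 in osteocytes at an unadjusted p under 0.05 in the quasi-likelihood test. Of 15 interferon-stimulated genes 7 fell in MSCs and 10 in osteocytes, among them Ifit3 by 2.37 and 2.30 and Usp18 by 2.13 and 2.31, with medians of −1.43 and −1.33. None of the 15 rose by the 3 tests, with 0 upward at an unadjusted p under 0.05 in the quasi-likelihood test. Cxcl10, which interferons also induce, was not in that list and had no detectable change, with at most 77 counts in any library.

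**Figure D4:**
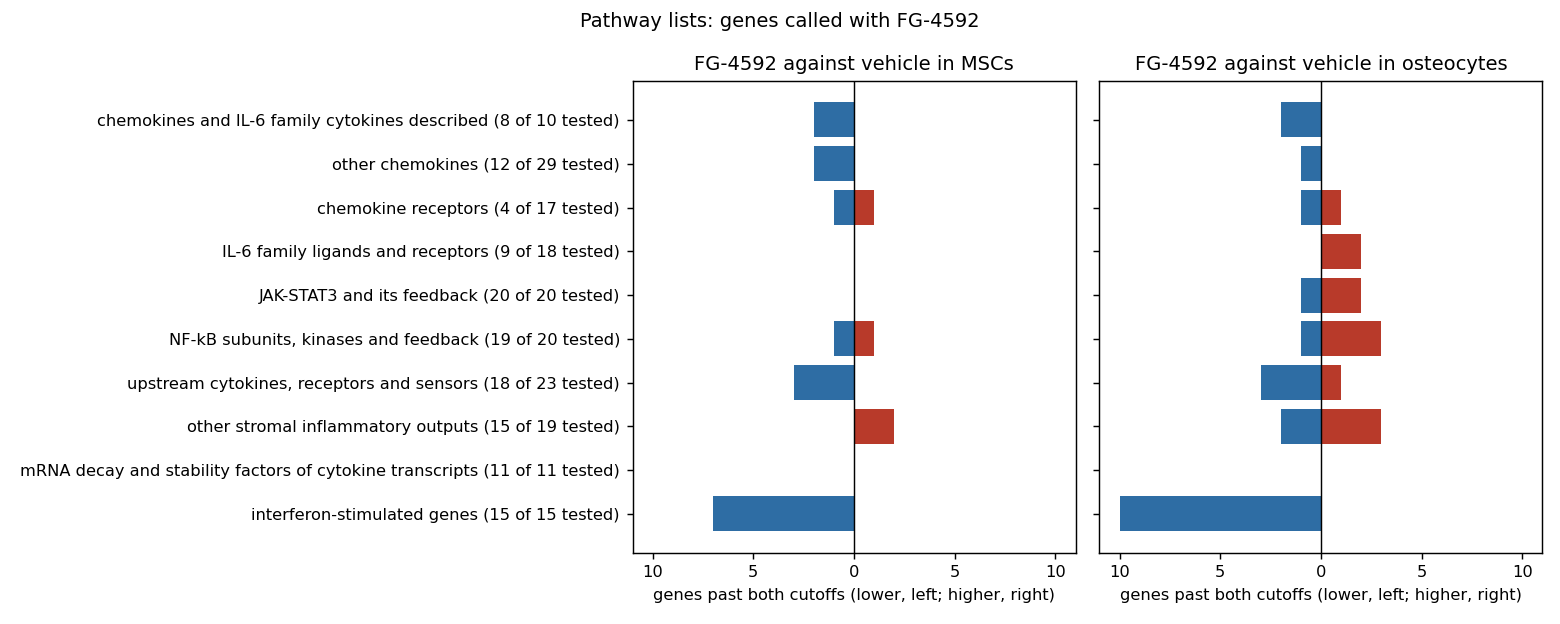
Number of genes past both cutoffs with FG-4592 in MSCs (left panel) and osteocytes (right panel) for the 10 genes described and for 9 lists of related genes; bars to the left count lower genes, bars to the right higher genes. Interferon-stimulated genes had 7 and 10 lower genes and 0 higher ones, and IL-6 family ligands and receptors had calls in osteocytes only by these cutoffs, both upward.

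Profiles over the 12 libraries were compared by the root mean square difference of centred log2 CPM (prior count 2), with 12152 or 12153 candidates of at least 100 mean counts in their highest condition. The nearest profiles to Cxcl12 were those of Aldh4a1 (0.11) and Sardh (0.12), genes of amino acid breakdown in mitochondria. Ccl2 was nearest to Pbk, a mitotic kinase (0.19), and to Phgdh, the first enzyme of serine synthesis (0.20), and Ccl7 to Phgdh (0.39) and Ccl2 (0.40). Cxcl1 was nearest to Gm5039 (0.23) and Arxes2 (0.27), and Lif to the bone morphogenetic protein gene Bmp6 (0.39) and to Ptprd (0.52). The low genes had more distant neighbours, Prkaa2 (0.68) and Cemip (0.71) for Cxcl10, Fmnl1 (0.63) for Il11, and Gm45428 (0.52) and Ndnf (0.59) for Il6. These depend on the prior count. With 0.5 in place of 2, Prkaa2 (1.06) and Cemip (1.27) were at ranks 3 and 29 for Cxcl10 and Fmnl1 (1.02) at rank 11 for Il11, while for Il6 Ndnf (0.863) came before Gm45428 (0.968). Ccl2 was thus 1 of the 2 nearest profiles of Ccl7, while 36 genes were nearer to Ccl2 than Ccl7 was.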

How the data were processed

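RNA from 12 samples of MPC2 cells, 3 from each of 4 conditions, was sequenced as 100 b read pairs. Per the labels and the methods of the study, the authors aligned reads to mm10 with STAR 2.7.2a and assigned them to Gencode M22 genes with featureCounts of Subread 1.6.2, without strand and with a mapping quality of at least 10, and the deposited values are raw counts per gene, not normalized. Library totals were 52829185 to 68108470 counts.

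The counts were analysed with edgeR 4.0.16 (R 4.3.3). Genes were kept where 3 or more libraries had over 10 counts, then scaled by TMM and fitted with 1 mean per condition over all 12 libraries. The quasi-likelihood test with Benjamini-Hochberg adjustment (FDR) was the main test, with calls at a log2 fold change beyond 1 in either direction and an FDR under 0.05. CPM and RPKM were computed from the deposited counts with TMM-scaled library sizes. An exact permutation test of 3 against 3 libraries cannot go below 0.1 and was not used. Counts of 0 were given a limit of 3 counts. Scripts were tested on simulated counts.

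The genes described and the lists of related genes were chosen with earlier results of these data known. Named genes were the 10 genes, their receptors, up to 3 called genes with the largest changes and at least 100 mean counts per list and comparison, the 2 nearest profiles of each gene tested, chromosomal neighbours, genes with shared exons and 4 check genes. Other names are marked where given. Results of some genes that the rule names are not reported here. Alternatives were the likelihood ratio test, DESeq2 1.42.0, RLE scaling, library size alone, other filters, a replicate block, the 6 libraries compared alone, and leaving out each library, and for profiles a prior count of 0.5.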

Additional observations from a re-analysis of the deposited data

Results flagged for a closer look

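The response to FG-4592 differed between osteocytes and MSCs past both cutoffs for 3 of the 8 genes tested, by the interaction term of edgeR's quasi-likelihood fit (log2 change in osteocytes minus that in MSCs). The difference was −2.59 for Ccl7 and −1.94 for Ccl2, which were lower with FG-4592 in osteocytes, and 1.13 for Cxcl1, which was lower in MSCs. For Cxcl12, which was lower with FG-4592 in both cell types, it was 0.62, past the FDR cutoff (5.18e-06) but under the fold change cutoff. Past both cutoffs were 3.94% of all genes tested upward and 1.07% downward. Groups of 3 libraries are too small for a test of single outlying libraries.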

How the results depend on the processing

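The number of the 8 genes called kept within 1.5 times under every alternative in all comparisons but FG-4592 in MSCs, where leaving out single libraries gave 1 to 2 genes, with 1 when replicate 2 of either MSC group was left out and Cxcl1 fell under the fold change cutoff. Directions turned only for changes that were not called. Leaving out single libraries gave ranges in MSCs of −0.72 to 1.43 for Cxcl10, −0.78 to 0.0274 for Il6, −1.24 to 0.74 for Il11 and −0.17 to 1.15 for Lif, and in osteocytes of −0.0646 to 0.115 for Cxcl1, −0.86 to 0.27 for Cxcl10 and −0.70 to 0.00805 for Il11. For Il6 between the vehicle-treated cell types it gave −0.59 to 0.39, and for the interaction −1.94 to 0.24 for Cxcl10, −1.10 to 0.88 for Il11 and −0.44 to 0.90 for Lif. The cause was not tested. On library size alone the change of Cxcl1 in osteocytes was −0.0444, where the median of all genes moved by −0.0976 by construction. Of the changes of the 8 genes under the alternatives, 753 kept their direction and call, 18 lost the call, 1 gained it and 16 turned. Replicate numbers are shared by all conditions, but same-numbered libraries did not deviate together (correlations −0.135 to 0.0543), and 1 of 12 libraries correlated best with its own number. With a replicate block, 2 of the 8 genes were called for FG-4592 in MSCs, 2 in osteocytes and 3 for the interaction, as without it, and Il11 lost its call between vehicle-treated cell types (2.22, FDR 0.0556, edgeR). Depth limits Il6, Il11, Cxcl10, Cxcl5 and Cxcl14, which had at most 77 counts in any library.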
